A study of Homo sapiens with 4 samples.

Results

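The genes described here were 42 members of TGF-beta, BMP and SMAD signalling, chosen by name: ligands, their receptors, extracellular binding proteins, SMAD proteins, SMURF ligases, nuclear corepressors and ID target genes. On the array, 51 of 34127 non-control probes carried the name of a member, and the 42 genes stood among 27193 gene names. The RNA came from THP1, a human monoblastic AML cell line with the MLL-AF9 fusion gene, harvested on day 2 after 1 treatment with 30 nM of a miRNA mimic, that is, a synthetic RNA duplex from which the cell loads the mature miRNA. One group of 2 arrays had received miR-511-5p mimic and the other group of 2 arrays control mimic #1, and all cells had been kept in the same low-serum medium. Each of 2 independent experiments, called experiment 1 and experiment 2, gave 1 array of each mimic. Both groups are the same cell line, and the arrays hold 1 control mimic, so a feature of that mimic cannot be told apart from the lack of miR-511. The levels are quantile-normalized log2 intensities of single-dye arrays, on which levels of different probes cannot be set against each other. In bulk RNA, fewer cells of a kind and less RNA per cell cannot be told apart.

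TGF-beta and activins bind pairs of type I and type II receptor kinases that phosphorylate SMAD2 and SMAD3, whereas BMPs act through other receptors of the same family on SMAD1, SMAD5 and SMAD9. The phosphorylated SMADs join SMAD4, enter the nucleus and change transcription of targets such as the ID genes, and the inhibitory SMAD6 and SMAD7 with the ubiquitin ligases SMURF1 and SMURF2 turn receptors and SMADs over. In monocytes and macrophages, TGF-beta is known as a regulator of differentiation, migration and inflammation.

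The sequences below are the miRNA that the mimic supplies, with its seed (bases 2 to 8) in capitals, the primers with which the study assayed SMURF2 by RT-qPCR, and the first 30 of 60 bases of the 3 member probes that passed the test between the mimics. RefSeq places the mature miRNA at chr10:17845122-17845142 on the plus strand of GRCh38.p14. Probe positions are those of the scanner files, in hg19, all on the minus strand: chr7:98625178-98625237 for SMURF1, chr17:62540735-62540794 for SMURF2 and chr13:37422813-37422872 for SMAD9.
hsa-miR-511-5p: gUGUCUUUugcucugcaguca
SMURF2 forward primer: tgcactaacaacctgccgaaag
SMURF2 reverse primer: tgaatgtggcctcatggcaaag
SMURF1 probe: gaaagttgtacactaatgttctatgtcaaa
SMURF2 probe: tatggcgtaaattactttgaagagttcatt
SMAD9 probe: ctggacaaagttctgactcagatgggctct
The letters AAAGACA, which pair with the seed, occurred in 0 of the 51 member probes on the strand printed in the files and in 0.97% of all probes. A probe covers a short stretch of a transcript, so this says nothing of sites elsewhere in these transcripts.

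Per array, 64.8% to 69.3% of all probes were well above background as the scanner software marks it, and no non-control spot was saturated. All 4 arrays lay on 1 slide. The 11 myeloid marker genes found on the array, among them CD14, CSF1R and SPI1, were above background on all 4 arrays, as were 3 of 3 endothelial markers (PECAM1, CDH5 and VWF), 2 of 3 B cell, 2 of 3 erythroid and 1 of 3 T cell markers. None of the 3 epithelial markers (CDH1, EPCAM and KRT19) was above background on any array, and 0 of 3 fibroblast markers were so on all 4.

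Most of the pathway was measurable in THP1, as were most probes of the array. Per array, 72.5% to 78.4% of member probes were well above background, against 64.8% to 69.3% of all probes. On all 4 arrays, 37 of 51 member probes were so, beside 21608 of all 34127 probes, counting those with a value on each array. Of the 42 genes, 33 had a probe well above background on all 4 arrays, 3 on some and 6 on none. The 6 genes without such a signal were the ligand BMP7, the latent TGF-beta binding proteins LTBP1 and LTBP2, the BMP antagonist NOG, the BMP type I receptor BMPR1B and SMAD1. Their normalized log2 values lay between 1.15 and 2.71 and were not well above background, so no fold change was drawn from them. All 3 TGF-beta ligands, all 4 type II receptors, both co-receptors, the common and inhibitory SMADs, both SMURF ligases, all 4 corepressors and all 3 ID genes were above background on every array. BMP6 was so only in experiment 2 with control mimic, at 4.09. INHBA, a subunit of activin, was above background on 3 arrays, all but the miR-511 mimic array of experiment 1.

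A probe was tested when 1 mimic or both had the probe well above background in each experiment. This left 39 member probes of 35 genes among 22638 probes in all, of which 37 were above background on all 4 arrays. A member that passed through 1 mimic only, as SMAD9 and INHBA did, was favoured to be higher there, so the count of tested members carries no information on direction.

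**Figure D1:**
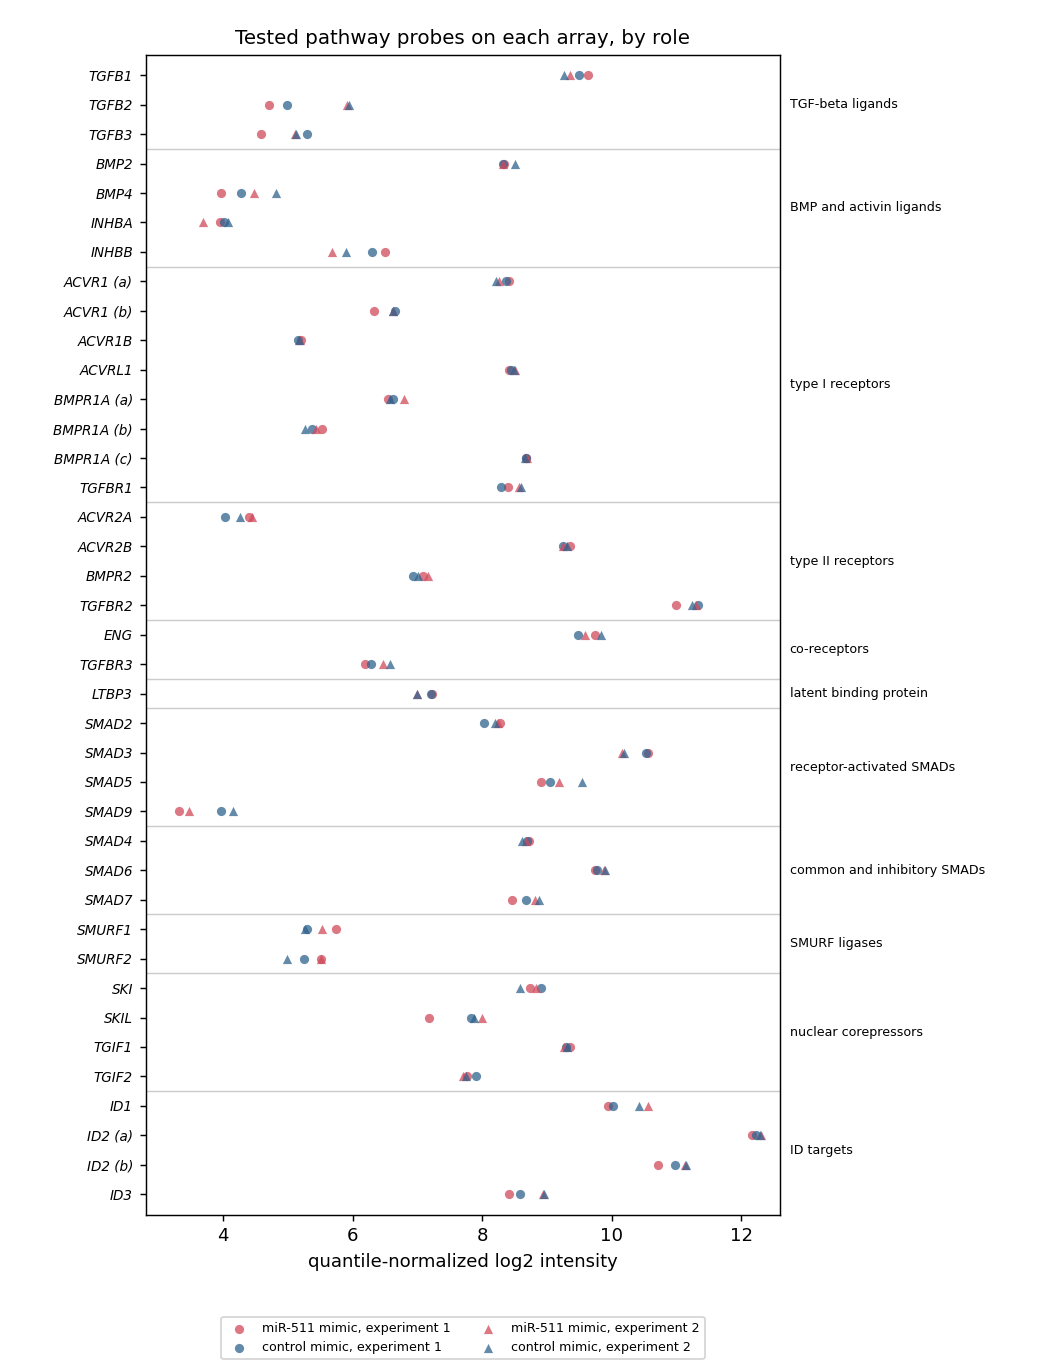
Quantile-normalized log2 intensity (x axis) of the 39 tested member probes (y axis, by role; letters tell probes of 1 gene apart) on each array, with colour for the mimic and shape for the experiment. Red and blue symbols are apart for SMAD9, SMURF1 and SMURF2, whereas for TGFB2, ID1, ID3 and SMAD3 circles and triangles are apart. Levels of different probes are not comparable.

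The first comparison asked which pathway genes differed between miR-511 mimic and control mimic. With miR-511 mimic, the ligases SMURF1 and SMURF2 were higher by 0.36 and 0.40 on the log2 scale, and SMAD9, a BMP-activated SMAD, was above background with control mimic only. By limma, 3 of 39 member probes (7.69%) passed an unadjusted p below 0.05, against 2.20% of all tested probes. SMAD9 is 1 of the 3 and entered the test only through the mimic with which it was brighter, so its call adds no support. Among probes above background on all 4 arrays, 2 of 37 member probes (5.41%) passed, against 1.82% of all such probes. Of the 3 calls among the 39 probes, SMURF1 and SMURF2 were higher with miR-511 mimic, where all 22638 tested probes had 1.27%. SMAD9 was lower, where all 22638 had 0.932%. None passed Benjamini-Hochberg adjustment in limma, in which the lowest adjusted p was 0.790 over all 22638 probes and 0.9999 among the members. The smallest p that an exact permutation test of 2 arrays against 2 allows is 0.333. With the experiment as a block, the share of all tested probes past the unadjusted threshold was 3.95% and 4 member probes passed, BMP4 being the one gained. The counts rested on single arrays: without the miR-511 mimic array of experiment 1 or the control mimic array of experiment 2, neither SMURF1 nor SMURF2 passed, and over all tested probes the count went from 498 to 1379 without the miR-511 mimic array of experiment 2 and to 796 without the control mimic array of experiment 1.

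The SMURF ligases mark receptors and SMADs for degradation. SMURF1 was at 5.74 with miR-511 mimic and 5.29 with control mimic in experiment 1, and at 5.53 and 5.27 in experiment 2. Both miR-511 mimic arrays were above both control mimic arrays. The group means were 5.63 ± 0.15 and 5.28 ± 0.01 (SD, n = 2 each), a difference of 0.36 (SE 0.12) with an unadjusted limma p of 0.0344. This call held under 7 of 13 other processings. Leaving out an array gave differences of 0.25 to 0.47, and only without the miR-511 mimic array of experiment 2 did SMURF1 still pass.

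SMURF2 was at 5.50 and 5.25 in experiment 1 with miR-511 mimic and control mimic, and at 5.52 and 4.98 in experiment 2. The groups did not overlap here either, and the control mimic arrays were further apart than the miR-511 mimic arrays. The means were 5.51 ± 0.01 and 5.11 ± 0.19 (SD, n = 2 each), 0.40 higher with miR-511 mimic (SE 0.13, unadjusted limma p 0.0350). The study chose SMURF2 for RT-qPCR from these same arrays, so this call is no independent evidence of its direction. It held under 6 of 13 other processings, and when arrays were left out only without the control mimic array of experiment 1. With normexp background correction, which adds an offset to every signal, the differences shrank to 0.11 for SMURF1 and 0.13 for SMURF2, and neither passed.

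SMAD9 was at 3.32 with miR-511 mimic and 3.96 with control mimic in experiment 1, and at 3.47 and 4.15 in experiment 2. This dim probe was well above background on both control mimic arrays and on neither miR-511 mimic array. The level of SMAD9 with miR-511 mimic was therefore not measured, and its Benjamini-Hochberg adjusted p in limma was 0.9999. Set against the dimmest signal marked well above background on each miR-511 mimic array, the control mimic mean was 1.51-fold higher. Where the probe itself was brighter than that signal, its own value was used. This fold is not a lower limit. On the miR-511 mimic array of experiment 1, a NEDD4L probe at 3.83 was still not above background. Under normexp background correction SMAD9 did not pass the unadjusted threshold. The other SMAD9 probe, at 2.26 and 2.14 in experiment 1 and at 1.13 and 1.05 in experiment 2, was above background on no array.

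**Figure D2:**
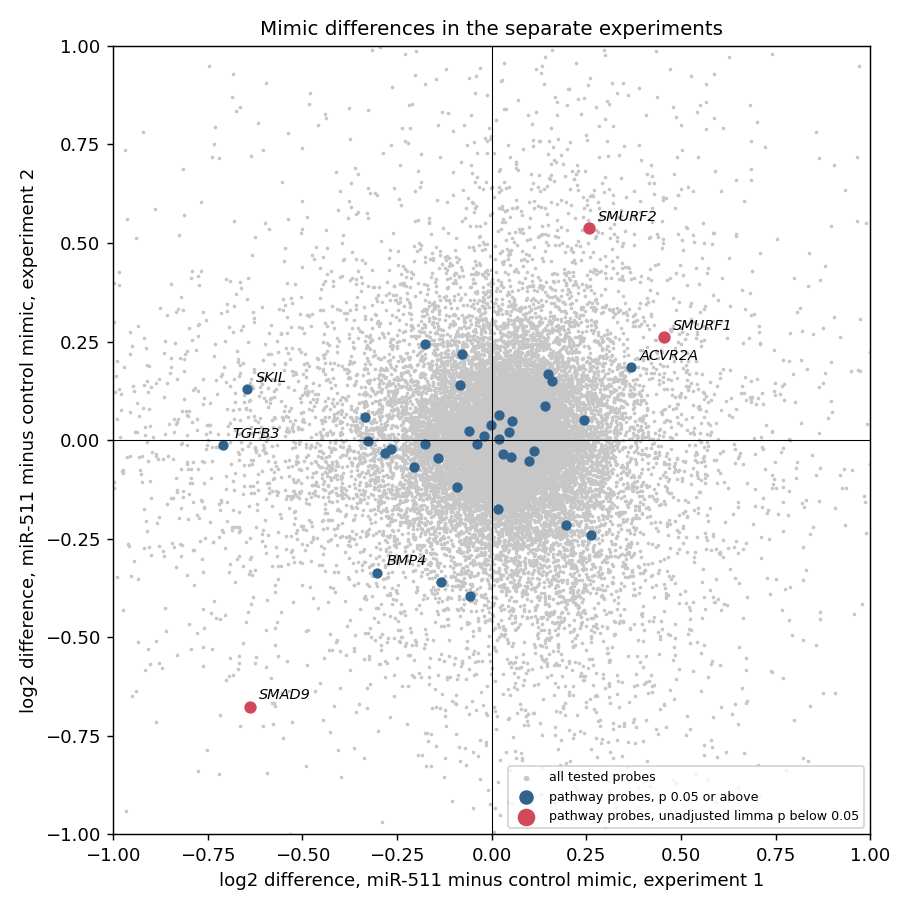
Log2 difference, miR-511 minus control mimic, of each tested probe in experiment 1 (x axis) and experiment 2 (y axis), with all tested probes in grey, member probes in blue and the 3 member probes with an unadjusted limma p below 0.05 in red. SMURF1 and SMURF2 lie in the upper right. SMAD9, in the lower left, was not above background with miR-511 mimic, so its place there is uncertain. Outside the axes, which end at 1 in either direction, lie 666 tested probes.

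Over the 39 member probes the median difference was -0.002, beside 0.010 over all tested probes, and 30 of the 39 differed by under 0.2 in either direction. The arrays of the mimics did not overlap for 11 member probes (28.2%), against 25.7% of all tested probes. The difference had the same sign in both experiments for 24 member probes (61.5%), against 51.0% of all tested probes. Both counts include SMAD9 and INHBA, which were tested only through control mimic, with which they were brighter. Both shares lay near those of all tested probes, over which the differences of experiment 1 and experiment 2 had a Pearson correlation of 0.04 across 22638 probes that share slide and normalization.

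Among the TGF-beta ligands, TGFB3 was at 4.59 with miR-511 mimic and 5.30 with control mimic in experiment 1, and at 5.11 and 5.12 in experiment 2. The gap lay nearly all in experiment 1, where the miR-511 mimic array was low. Its mean difference of -0.36 (SE 0.21) had an unadjusted limma p of 0.159. TGFB1 and TGFB2 had differences of 0.11 (SE 0.15) and -0.16 (SE 0.54), neither past the threshold. Unless the block is named, standard errors between the mimics are from the fit without it, so they hold the offset between the experiments. With the experiment as a block, those of TGFB1 and TGFB2 were 0.08 and 0.11, and neither passed.

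BMP4, a ligand of the BMP receptors, was at 3.96 with miR-511 mimic and 4.27 with control mimic in experiment 1, and at 4.48 and 4.82 in experiment 2. The control mimic array was the higher one in each experiment, by 0.30 and 0.34, while both arrays of experiment 2 were above both of experiment 1, so the mimic groups overlapped. The difference was -0.32 (SE 0.28, unadjusted limma p 0.310) without a term for the experiment. With the experiment as a block its standard error was 0.08 and its p in limma 0.0266. The remaining tested ligands BMP2, INHBA and INHBB had differences of -0.08, -0.23 and -0.01, none past the threshold. INHBA was tested only through control mimic, with which it was brighter, so its sign adds no support.

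None of the receptors differed between the mimics past the threshold. ACVR2A, an activin type II receptor, was at 4.39 and 4.02 with miR-511 mimic and control mimic in experiment 1, and at 4.44 and 4.26 in experiment 2. Both miR-511 mimic arrays were the higher ones, and the difference of 0.28 (SE 0.12) had an unadjusted limma p of 0.0814. BMPR2, the main BMP type II receptor, differed by 0.15 (SE 0.09), and TGFBR2, the TGF-beta type II receptor, by -0.14 (SE 0.14).

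The 8 tested probes of type I receptors had differences between -0.17 and 0.16, with a median of 0.04. The brightest ACVR1 probe was at 8.42 and 8.36 with miR-511 mimic and control mimic in experiment 1, and at 8.26 and 8.21 in experiment 2. Its difference of 0.05 (SE 0.12) was in the other direction than that of the second ACVR1 probe, -0.17 (SE 0.13), and neither passed. The 3 BMPR1A probes had differences of 0.07, 0.16 and 0.02. The co-receptor TGFBR3 was at 6.20 and 6.29 in experiment 1 and at 6.46 and 6.58 in experiment 2, a difference of -0.10 (SE 0.16), and the endothelial and monocyte co-receptor ENG differed by 0.01 (SE 0.16). Among the members, LTBP3 was the one latent TGF-beta binding protein above background. It was at 7.23 and 7.21 in experiment 1 and at 6.99 and 6.99 in experiment 2. LTBP4, not a member, was also above background on all 4 arrays.

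Apart from SMAD9, the SMADs stayed under the threshold. SMAD5, also activated by BMP receptors, had a difference of -0.25 (SE 0.22), and SMAD2 and SMAD3 had 0.15 (SE 0.11) and -0.002 (SE 0.21). With the experiment as a block, the standard errors of SMAD5 and SMAD3 were 0.10 and 0.08, and neither passed. The common partner SMAD4 differed by 0.04 and the inhibitory SMAD6 by -0.02. SMAD7, an inhibitory SMAD that recruits SMURF ligases to receptors, was at 8.47 with miR-511 mimic and 8.67 with control mimic in experiment 1, and at 8.81 and 8.88 in experiment 2. The control mimic array was the higher one each time, but the mimic groups overlapped, and the difference of -0.14 (SE 0.17) had an unadjusted limma p of 0.451.

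SKIL, a corepressor that binds SMADs, was at 7.17 and 7.82 with miR-511 mimic and control mimic in experiment 1, and at 8.0 and 7.87 in experiment 2. The difference thus changed sign between the experiments, and its mean of -0.26 (SE 0.30, unadjusted limma p 0.438) rested on the low miR-511 mimic array of experiment 1, without which it was 0.16. SKI, TGIF1 and TGIF2 had differences of 0.03, 0.004 and -0.09. ID3, an inhibitor of basic helix-loop-helix factors, was at 8.41 and 8.59 in experiment 1 and at 8.95 and 8.96 in experiment 2, so that experiments rather than mimics were apart. Its difference was -0.09 (SE 0.24), beside 0.03 for ID1 and -0.02 and -0.14 for the 2 probes of ID2, and none of these passed.

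The wider pathway was covered by 73 further genes, such as GDF ligands, FST, NEDD4L and PMEPA1, with 97 probes. Of these, 65 probes were tested and 0 passed an unadjusted p below 0.05 in limma between the mimics, with a median difference of 0.06. Under other processings 0 to 2 of them passed, and 1 to 3 after an array was left out.

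The second comparison set experiment 2 against experiment 1 over the same 4 arrays. Each side is 1 experiment with 1 array of each mimic. The SDs, standard errors and p-values of this comparison therefore rest on arrays within an experiment. They do not measure the spread over repeated cultures. Culture, harvest and array differ together here and cannot be told apart. In experiment 2, the ID genes ID1 and ID3, the ligands TGFB2 and BMP4 and the receptors TGFBR1 and TGFBR3 were higher, and INHBB, SMAD3, TGFB1 and LTBP3 were lower. These 10 of 39 member probes (25.6%) passed an unadjusted p below 0.05 by limma, against 13.6% of all tested probes. Of these, 6 were higher in experiment 2 (15.4%), against 5.42% of all tested probes, and 4 were lower (10.3%), against 8.15%. None passed Benjamini-Hochberg adjustment in limma, where the lowest adjusted p was 0.215 over all probes and for the members alike. The arrays of the experiments did not overlap for 20 member probes (51.3%), against 48.9% of all tested probes. Without the control mimic array of experiment 2 the count of members fell to 5, and without the miR-511 mimic array of experiment 1 to 6. With the mimic as a block, 8 member probes (20.5%) passed, against 11.6% of all tested probes: TGFBR1, TGFB1 and LTBP3 no longer did, with unadjusted limma p-values of 0.0701, 0.0522 and 0.0574, and SMAD5 was gained. The genes named for this comparison were picked after their values were seen.

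**Figure D3:**
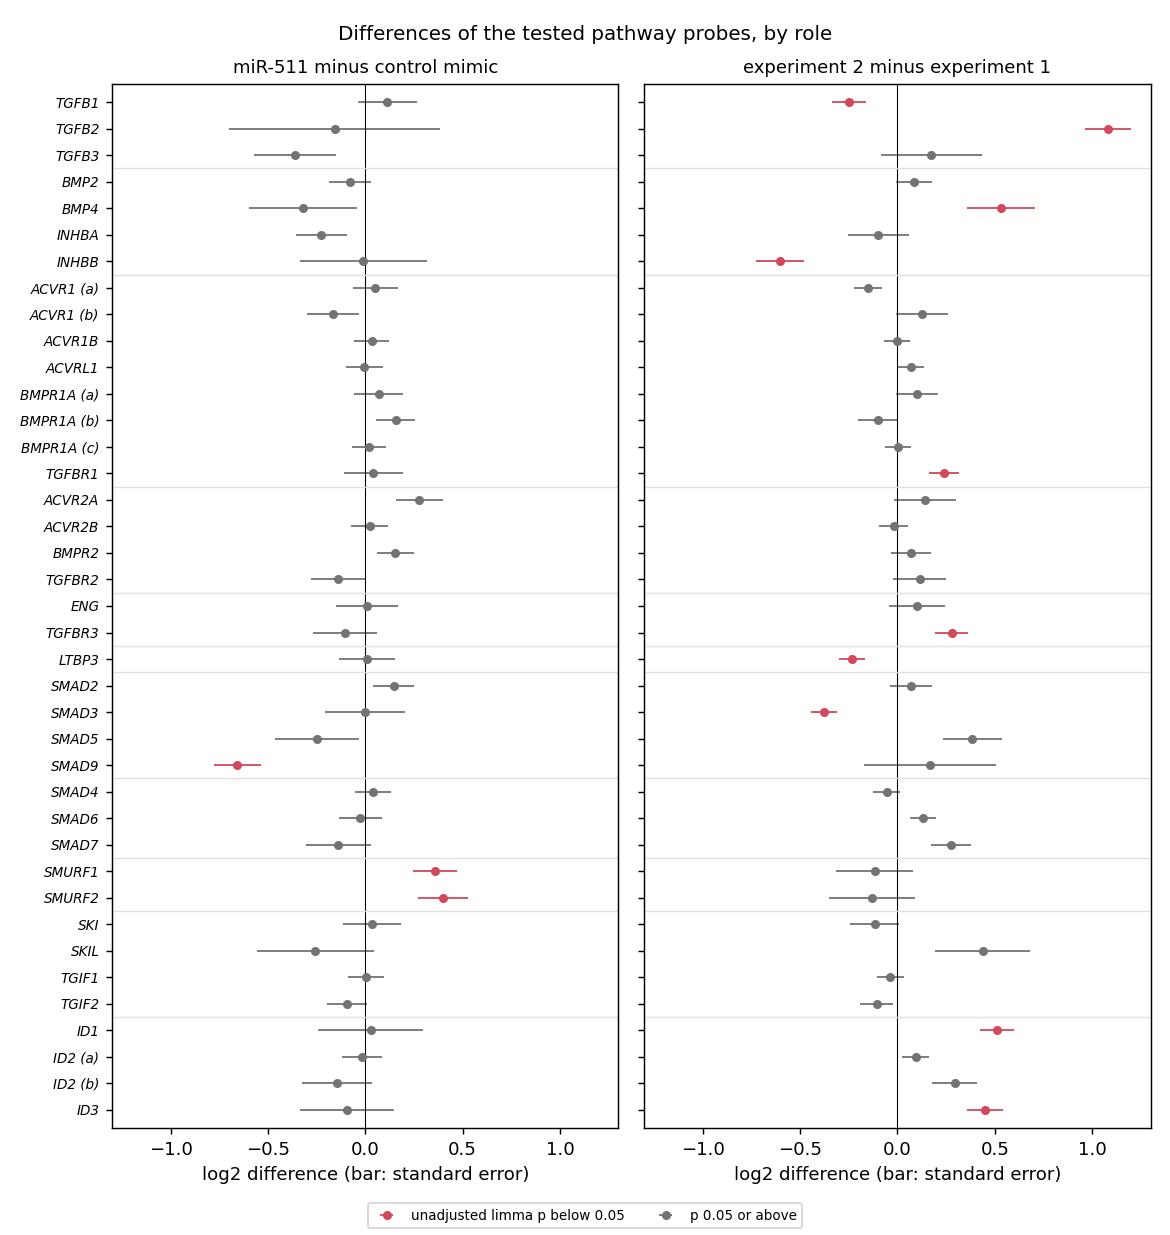
Log2 difference (x axis, with its standard error from limma as bar) of the 39 tested member probes (y axis, by role; letters tell probes of 1 gene apart) between the mimics on the left and between the experiments on the right, in red where the unadjusted limma p was below 0.05. The left panel has 3 red probes, of which SMAD9 was above background with control mimic only, and the right panel has 10.

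TGFB2, the TGF-beta ligand with the largest of these differences, was at 4.71 and 4.99 in experiment 1 with miR-511 mimic and control mimic, and at 5.91 and 5.95 in experiment 2. Both arrays of experiment 2 were above both of experiment 1 by a wide gap. The means were 4.85 ± 0.20 and 5.93 ± 0.02 (SD between the miR-511 mimic and control mimic arrays of 1 experiment, n = 2 arrays each). The difference was 1.08 (SE 0.12, unadjusted limma p 8.97e-04, Benjamini-Hochberg adjusted p 0.215). With normexp background correction the difference was 0.42 and still passed.

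ID1 and ID3, both direct targets of BMP-activated SMADs, moved together between the experiments. ID1 was at 9.94 and 10.02 in experiment 1 with miR-511 mimic and control mimic, and at 10.56 and 10.42 in experiment 2. Neither ID1 nor ID3 had arrays of the experiments that overlapped. ID1 was higher by 0.51 (SE 0.09) and ID3 by 0.45 (SE 0.09), with unadjusted limma p-values of 0.00443 and 0.00795. The 2 probes of ID2 had differences in the same direction, 0.10 (SE 0.07) and 0.29 (SE 0.12), which did not pass. Both arrays of experiment 2 were also above both of experiment 1 for SMAD6 and SMAD7, other genes that SMADs are known to induce. Their differences of 0.13 (SE 0.07) and 0.28 (SE 0.10) did not pass. Arrays of the experiments that did not overlap, in either direction, were found for 48.9% of all tested probes, so non-overlap does not set these genes apart. Other known targets went either way. The arrays of the experiments did not overlap for KLF10, at 0.31 (SE 0.13), nor for ID4, at -0.26 (SE 0.13), the cell cycle inhibitor CDKN1A, at -0.21 (SE 0.09), and MYC, at -0.18 (SE 0.08), and none of these passed. They did not overlap for a PMEPA1 probe either, at 0.53 (SE 0.08), which passed.

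In the other direction, SMAD3, the SMAD of TGF-beta and activin receptors, was at 10.56 and 10.53 in experiment 1 and at 10.15 and 10.19 in experiment 2. All 4 values were well apart by experiment, and the difference was -0.38 (SE 0.07, unadjusted limma p 0.00525). INHBB, a subunit of activin B and inhibin B, was at 6.49 and 6.30 in experiment 1 and at 5.68 and 5.90 in experiment 2. Both arrays of experiment 2 were below both of experiment 1, with a difference of -0.60 (SE 0.12, unadjusted limma p 0.00830). With normexp background correction the INHBB difference was -0.18 and still passed. TGFB1 and LTBP3 had differences of -0.25 (SE 0.09) and -0.23 (SE 0.07).

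TGFB2, ID1, ID3, SMAD3 and INHBB passed without any 1 of the 4 arrays. The other 5 did not: BMP4 (0.53, SE 0.17) passed in 2 of 4 such fits, TGFB1 and TGFBR1 (0.24, SE 0.08) in 1, and TGFBR3 (0.28, SE 0.08) and LTBP3 in 0. With normexp background correction BMP4 and TGFBR3 had differences of 0.09 and 0.10, and TGFBR1 0.16, none past the threshold. Across all member probes, the difference between the experiments was larger in size than that between the mimics for 25 of 39 (64.1%), beside 62.0% of all tested probes.

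Of the wider pathway, 7 of 65 tested probes (10.8%) passed between the experiments, near the 13.6% of all probes. PMEPA1, a TGF-beta target that restrains SMAD signalling, was higher in experiment 2 by 0.53 (SE 0.08), TWSG1, a BMP-binding protein, by 0.69 (SE 0.18) and the SMAD-associated factor E2F5 by 0.28 (SE 0.07). Lower were the nodal antagonist LEFTY1 at -0.50 (SE 0.09), the BMP co-receptor RGMA at -0.43 (SE 0.14), the BMP modulator BMPER at -0.33 (SE 0.07) and the ligand BMP8B at -0.33 (SE 0.07), whose second probe had a difference of 0.18 (SE 0.11) and did not pass. A second probe of PMEPA1, at 0.16 (SE 0.13), did not pass either.

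Promoter windows, from 250 bases before to 50 after the start, were held by RefSeq for 37 of the 42 genes, as 74 windows. They were searched on both strands for GTCTAGAC, the palindromic SMAD binding element, for GGCGCC, a GC-rich element of BMP-regulated genes, and for TATAA. GTCTAGAC was in 1 of the 74 windows, that of SMAD6, and in 0.202% of 35116 windows in all, GGCGCC in 17 of 74 and in 19.2%, and TATAA in 11 of 74 and in 20.4%. The stretches below show the element of SMAD6 and the TATAA of the ID genes that were higher in experiment 2 in capitals, with 100 bases before the start for ID1 and ID3. They are from GRCh38.p14, at chr15:66702194-66702235 on the plus strand for SMAD6, chr20:31605189-31605288 on the plus strand for ID1 and chr1:23559502-23559601 on the minus strand for ID3. A match is a run of letters, not a measured binding site.
SMAD6 promoter: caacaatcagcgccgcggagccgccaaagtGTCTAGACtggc
ID1 promoter: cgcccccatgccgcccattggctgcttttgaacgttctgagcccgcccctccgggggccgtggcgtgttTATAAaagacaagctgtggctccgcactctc
ID3 promoter: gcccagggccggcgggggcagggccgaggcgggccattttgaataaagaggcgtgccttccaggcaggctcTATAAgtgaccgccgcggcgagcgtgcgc

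The differences between the mimics were recomputed under each processing for SMURF1, SMURF2 and SMAD9, which passed without a term for the experiment, and for BMP4, which passed with the block. SMURF1, SMURF2 and BMP4 kept their direction in every fit run, as the plot by processing shows, and SMAD9 in every fit that held it. SMAD9 was not above background with miR-511 mimic and passed the filter only through control mimic, so its direction adds no support.

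**Figure D4:**
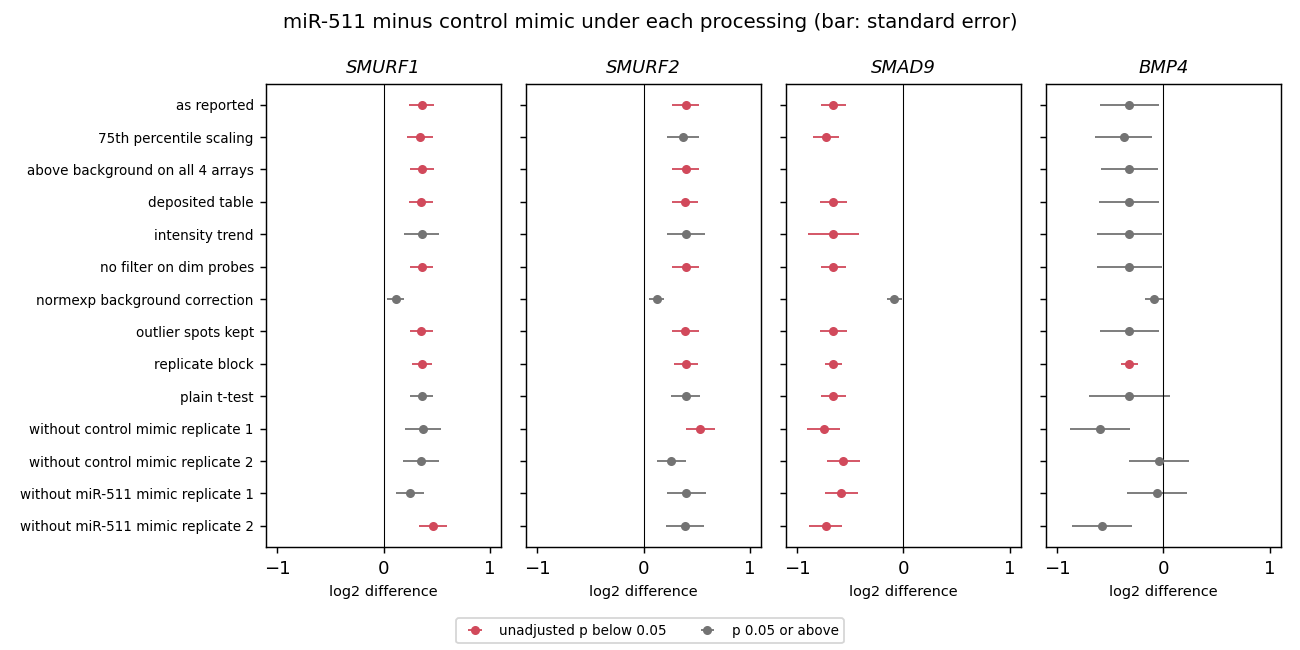
Log2 difference, miR-511 minus control mimic (x axis, with its standard error as bar), of SMURF1, SMURF2, SMAD9 and BMP4 under each processing (y axis), in red where the unadjusted p was below 0.05. With normexp background correction none is red and all 4 lie near 0 (-0.09 to 0.13), and SMAD9 has no value where a probe had to be above background on all 4 arrays.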

How the data were processed

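The authors deposited 1 scanner file per array from Agilent Feature Extraction (version 10.7.3.1 per the file headers), whose processed intensity is background-subtracted per spot and not normalized between arrays, and a table of quantile-normalized log2 values. The members and gene lists were chosen with earlier results of these data known. In R 4.3.3, the processed intensities of 43118 non-control spots were put on a log2 scale, spots marked as outliers (232 to 301 per array) were left out, arrays were quantile normalized and the spots of a probe averaged. A probe printed 10 times (INHBA, TGFB1, SMAD4 and SMAD3) counted as above background when over 50% of its spots did. limma 3.58.1 (lmFit, eBayes, two-sided p) compared all 22638 tested probes, with Benjamini-Hochberg adjustment over them. The functions were tested on simulated data. The labels assign each array to an experiment, and deviations of arrays of 1 experiment from their mimic means correlated at 0.271, so the experiment pairs the arrays. Probe names are those of the files; 50 of 51 member probes matched RefSeq (GRCh38.p14) by accession, all with the same symbol.

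Named with all values were SMURF2, member probes past the unadjusted threshold or with a mean difference of at least 0.3 in the same direction in both experiments, and for a role without one, the brightest probe of its member with the largest difference. Alternatives were 75th percentile scaling, normexp (offset 50), no filter or one on all 4 arrays, outlier spots kept, the deposited table, the experiment (or mimic) as a block, an intensity trend, a plain t-test of averaged probes (the methods name a t-test only over identical replicate probes) and leaving out each array. The number of arrays, 2 per group, limits the precision.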

Additional observations from a re-analysis of the deposited data

How the results depend on the processing

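Of the 498 tested probes that passed an unadjusted limma p below 0.05 between the mimics, the number became 285 with an intensity trend, 1029 with no filter on dim probes, 265 with normexp background correction and 894 with the replicate block that pairs arrays by experiment, and leaving out an array gave 516 to 1379. The 3 member probes became 1 with the intensity trend and 1 with a plain t-test of averaged probes, SMAD9 both times and so neither SMURF gene, 0 with normexp, where limma called no probe after adjustment, and 1 to 4 without an array. The replicate block called 4 and changed no other call of a named member than that of BMP4. The median difference of the members was -0.049 to 0.029 without an array. Between the experiments, the 10 member probes became 5 to 12 and the 3074 probes in all 1863 to 3221 without an array. Differences between the mimics that changed sign on leaving out an array, none of them past the threshold with all arrays, ranged from -0.026 to 0.13 for ACVR1, -0.36 to 0.17 for ID3, -0.11 to 0.13 for LTBP3, -0.67 to 0.16 for SKIL, -0.31 to 0.035 for SMAD7 and -0.25 to 0.042 for TGFBR3. With 75th percentile scaling SMURF2 was at 0.37 and did not pass. With no filter SMAD1, above background on no array, also passed. TGFB3 and SKIL passed without the miR-511 mimic array of experiment 2. The causes were not tested. Arrays left out leave 1 array in a group, assumed to vary like the others. A slide block had no meaning with 1 slide and was left out. Dim probes near background limit what can be said of SMURF1, SMURF2, SMAD9 and BMP4.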

Other observations

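NEDD4L, a ubiquitin ligase of the same family as the SMURF proteins, had 3 tested probes, all lower with miR-511 mimic in both experiments. The 2 probes above background on all 4 arrays had differences of -0.40 (SE 0.22) and -0.22 (SE 0.14), which passed neither without a term for the experiment nor with the experiment as a block. The third was above background with control mimic only and was 1.53-fold brighter there. That fold is not a lower limit, since its level with miR-511 mimic was not measured. It did not pass without the block (unadjusted limma p 0.0645) and was the 1 wider pathway probe that passed with it (unadjusted limma p 0.00519), but like SMAD9 it entered the test only through the mimic with which it was brighter. A probe of THBS1, an activator of latent TGF-beta, was not above background on the miR-511 mimic array of experiment 1 and was at 4.34 on the control mimic array of that experiment, against 3.99 and 4.08 in experiment 2, so no difference was drawn from it. The other THBS1 probe was between 6.83 and 6.88 on all 4 arrays.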
